A study of Mus musculus with 3 samples.

Results

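Colon26 is a murine colon adenocarcinoma cell line of the BALB/c strain, from a female mouse, and LuM1 and NM11 are its high-metastatic and low-metastatic sublines. In these lines, 10 genes of the TGF-beta pathway were followed, namely the ligands *Tgfb1*, *Tgfb2* and *Tgfb3*, the receptors *Tgfbr1* and *Tgfbr2*, the signal transducer *Smad3*, the feedback genes *Smad7*, *Skil* and *Pmepa1*, and the target *Tgfbi*. They are 10 of the 22911 genes that could be named on the arrays, and 17 probes carry their RefSeq accessions. The genes were chosen by name, with earlier results of these arrays known, so their levels are given as a description. Each line was measured on 1 single-colour array, after 3 days of culture, with no treatment named, in RPMI1640 medium with fetal bovine serum and antibiotics, from 0.1 µg of total RNA. With 1 array per line there was no replicate error and no test, and line, culture and array cannot be told apart. The error given after each signal is the scanner software's own estimate for that spot, and it holds no biological variation.

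TGF-beta is secreted as a latent dimer, held in the matrix by latent TGF-beta binding proteins and set free by integrins, thrombospondin-1 or proteases. The free ligand joins the type II receptor, encoded by *Tgfbr2*, to the type I receptor, encoded by *Tgfbr1*, which phosphorylates SMAD2 and SMAD3, and these enter the nucleus with SMAD4. SMAD complexes switch on matrix genes and also their own brakes, among them SMAD7, SnoN (the product of *Skil*) and PMEPA1. In the gut, TGF-beta restrains the growth of epithelial cells, and many colorectal tumors lose part of the pathway.

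The signal of each spot was scaled to a common 75th percentile of 585.1, so that signals of 1 probe can be compared between arrays in arbitrary units. A probe is called measured where the scanner software marked it well above background, and such signals began at 26.4 (Colon26), 20.1 (LuM1) and 19.6 (NM11). Of the 17 probes, 16 were measured on all 3 arrays, and each of the 10 genes is given by its brightest probe, which was measured on all 3. Signals of different probes are not set against each other, because each probe binds its target with its own strength. In RNA from a whole culture, fewer cells that express a gene and less RNA per cell cannot be told apart.

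For 6 of the 10 genes, RefSeq promoter windows were at hand, 7 windows in all. Those of *Tgfbi*, *Tgfb1* and *Tgfbr1* are shown, as the genes with at least 2-fold higher signals in LuM1 cells than in Colon26 cells. Each runs 250 bases up to the annotated start on the strand of the gene (GRCm38.p6), at chr13:56609336-56609585, plus strand, for *Tgfbi*, at chr7:25686752-25687001, plus strand, for *Tgfb1*, and at chr4:47352972-47353221, plus strand, for the first of the 2 *Tgfbr1* windows. Capitals mark CAGAC, the core of the SMAD binding element, or GTCTG, the same letters on the other strand.
Tgfbi promoter: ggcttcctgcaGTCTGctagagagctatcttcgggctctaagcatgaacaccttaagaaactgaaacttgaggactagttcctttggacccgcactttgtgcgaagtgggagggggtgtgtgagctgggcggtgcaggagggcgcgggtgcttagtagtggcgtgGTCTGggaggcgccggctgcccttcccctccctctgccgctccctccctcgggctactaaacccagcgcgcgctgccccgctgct
Tgfb1 promoter: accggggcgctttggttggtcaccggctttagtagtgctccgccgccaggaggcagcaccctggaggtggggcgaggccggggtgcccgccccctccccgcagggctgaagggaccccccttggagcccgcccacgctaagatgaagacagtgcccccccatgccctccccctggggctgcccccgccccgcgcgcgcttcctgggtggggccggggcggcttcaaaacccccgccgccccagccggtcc
Tgfbr1 promoter: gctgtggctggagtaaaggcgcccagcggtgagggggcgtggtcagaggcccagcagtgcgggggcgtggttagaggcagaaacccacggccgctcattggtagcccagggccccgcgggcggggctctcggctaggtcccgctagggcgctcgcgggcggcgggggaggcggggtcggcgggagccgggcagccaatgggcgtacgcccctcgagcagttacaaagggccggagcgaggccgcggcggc
The *Tgfbi* window holds GTCTG at 239 and at 85 bases before the start. The *Tgfb1* window and the *Tgfbr1* window shown hold neither form, while the second *Tgfbr1* window, at chr4:47385966-47386215, holds CAGAC at 203 bases before its start. Of the 7 windows, 4 hold the motif on either strand, beside 42.2% of all 32851 promoter windows of this length. The palindromic SMAD binding element GTCTAGAC lies in none of the 7 windows and in 0.167% of all windows. A match of these letters is a description of the sequence and not a binding site.

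Among the ligands, *Tgfb1* mRNA signals were higher in LuM1 cells than in either other line, whereas *Tgfb3* signals were lower. *Tgfb1* encodes the ligand that most cell types secrete. Its brightest probe read 316.8 ± 32.3 in Colon26, 973.9 ± 97.5 in LuM1 and 447.5 ± 45.0 in NM11. *Tgfb1* was therefore 3.07-fold higher in LuM1 cells than in Colon26 cells and 2.18-fold higher than in NM11 cells, log2 ratios of 1.62 and 1.12 beside scanner errors of 0.21 and 0.20. In NM11 cells it was 1.41-fold higher than in Colon26 cells. The second *Tgfb1* probe read 43.2 ± 6.97, 174.9 ± 18.0 and 71.4 ± 8.18 in the same order, and its log2 ratios were 2.02 for LuM1 over Colon26 and 1.29 for LuM1 over NM11. Under another background correction, normexp, these 2 log2 ratios of the dimmer probe were 1.06 and 0.80. Both probes put the lines in the same order, LuM1 above NM11 above Colon26, but probes on the same arrays share their scaling. With scaling to *Hprt*, the log2 ratios of NM11 over Colon26 were 0.01 for the brightest probe and 0.24 for the second.

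*Tgfb3*, a ligand known from palate closure and wound repair, went the other way. Its single probe read 2430.1 ± 243 in Colon26, 741.2 ± 74.2 in LuM1 and 1654 ± 165 in NM11. It was 3.28-fold lower in LuM1 cells than in Colon26 cells and 2.23-fold lower than in NM11 cells (log2 ratios of -1.71 and -1.16). Against NM11 the ratio fell short of 2-fold with scaling to *Hprt*, where it was -0.57. It also fell short with no scaling, with scaling to spike-in controls and in the authors' processed values. NM11 lay 1.47-fold below Colon26, so the order was the reverse of that of *Tgfb1*.

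The 2 probes of *Tgfb2*, the ligand that needs the co-receptor betaglycan for strong binding, did not give 1 order. The brighter probe read 231.7 ± 23.8 in Colon26, 124.0 ± 13.1 in LuM1 and 106.7 ± 11.4 in NM11, 1.87-fold lower in LuM1 and 2.17-fold lower in NM11. The dimmer probe read 51.6 ± 7.49, 71.7 ± 8.26 and 20.7 ± 4.45, so that LuM1 was 1.39-fold above Colon26 and 3.47-fold above NM11. Their log2 ratios of LuM1 over Colon26 differed by 1.38, and those of LuM1 over NM11 by 1.58, whereas both put NM11 below Colon26, with log2 ratios of -1.12 and -1.32. The signal of the dimmer probe in NM11 cells lay just above the lowest measured signal of that array. Normexp brought its log2 ratio of LuM1 over NM11 from 1.80 to 0.53, and that of LuM1 over Colon26 from 0.47 to 0.10. A statement on *Tgfb2* in LuM1 cells thus depends on the probe.

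**Figure D1:**
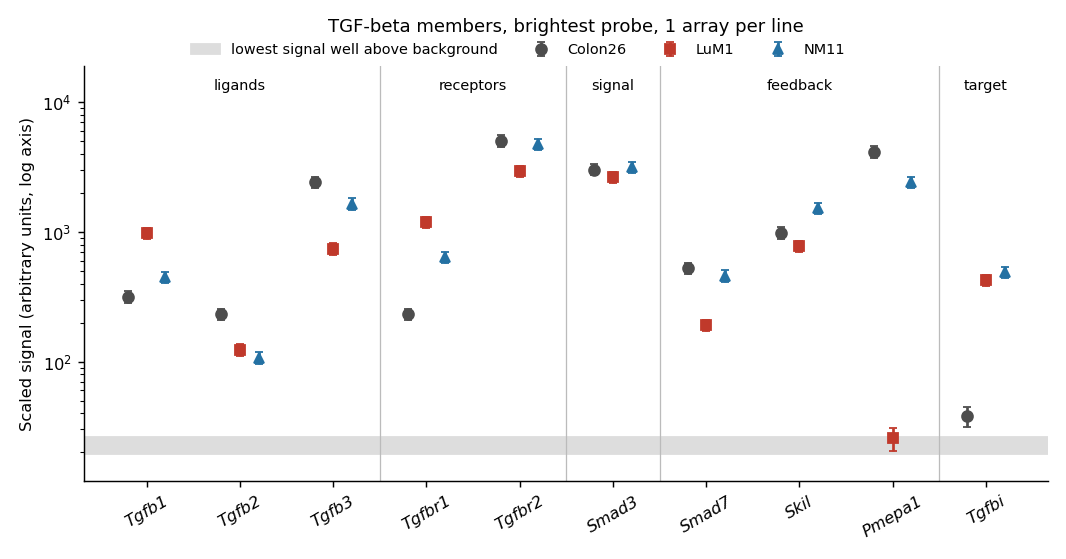
Scaled signal (arbitrary units, logarithmic axis) of the brightest probe of each of the 10 genes on the Colon26, LuM1 and NM11 arrays, with the scanner error of each spot as bars and the range of the lowest measured signals as a grey band. *Pmepa1* lies at 25.7 in LuM1 cells, within the band but above the LuM1 limit of 20.1, and at 4161 and 2411 in the other lines, while *Tgfbi* is low in Colon26 cells alone; heights compare lines within a gene and not genes with each other.

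The receptors differed in direction. *Tgfbr1* encodes the kinase that passes the signal on, and its brighter probe read 231.7 ± 23.9 in Colon26, 1196 ± 120 in LuM1 and 642.3 ± 64.4 in NM11. It was 5.16-fold higher in LuM1 cells and 2.77-fold higher in NM11 cells than in Colon26 cells, with log2 ratios of 2.37 and 1.47, and 1.86-fold higher in LuM1 cells than in NM11 cells. The second *Tgfbr1* probe was not well above background in Colon26 cells and read 110.6 ± 12.1 in LuM1 and 64.8 ± 7.88 in NM11. Against the lowest measured signal of the Colon26 array, it was at least 4.19-fold higher in LuM1 cells and at least 2.46-fold higher in NM11 cells. Normexp background correction lowered these bounds from log2 ratios of 2.07 and 1.30 to 0.87 and 0.61. LuM1 was highest and Colon26 lowest with both probes.

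*Tgfbr2*, the ligand-binding receptor, read 5048 ± 505 in Colon26, 2949.6 ± 295 in LuM1 and 4729 ± 473 in NM11. It was 1.71-fold lower in LuM1 cells than in Colon26 cells, a log2 ratio of -0.78, and 1.60-fold lower than in NM11 cells, a log2 ratio of -0.68. In the authors' processed values the first ratio was -0.33, and with scaling to *Hprt* the second was -0.09. Colon26 and NM11 differed by a log2 ratio of -0.09, within the scanner error of 0.20.

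*Smad3*, the transducer, differed least among the 10 genes. Its brighter probe read 3033 ± 303 in Colon26, 2644 ± 264 in LuM1 and 3144 ± 314 in NM11, a span of 1.19-fold. The log2 ratios were -0.20 for LuM1 over Colon26 and 0.05 for NM11 over Colon26, not beyond the scanner error of 0.20, and -0.25 for LuM1 over NM11. A dimmer *Smad3* probe gave -0.08, 0.13 and -0.21. The sign of the *Smad3* ratios turned under other scalings, for LuM1 over Colon26 to 0.25 in the authors' processed values and for LuM1 over NM11 to 0.34 with scaling to *Hprt*.

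The feedback genes *Smad7* and *Pmepa1* were both lower in LuM1 cells than in the other lines by at least 2-fold, and *Skil* was lower by less. For *Smad7* against NM11 this held with the scaling used here and not with scaling to *Hprt*, to the spike-in controls or in the authors' processed values, where the log2 ratios were -0.67, -0.94 and -0.85. *Pmepa1* encodes a membrane protein that binds SMAD2 and SMAD3 and keeps them from the receptor. Its single probe read 4161 ± 416 in Colon26, 25.7 ± 5.06 in LuM1 and 2411 ± 241 in NM11. The log2 ratios were -7.34 for LuM1 over Colon26, a signal 162-fold lower, and -6.55 for LuM1 over NM11, a signal 93.8-fold lower, each with a scanner error of 0.32. Among the 12249 genes measured on all 3 arrays, only 3 had a lower ratio of LuM1 over Colon26, and 7 had a lower ratio of LuM1 over NM11. This ranking leaves out genes not well above background in LuM1 cells, so genes lost there more fully are not in it. NM11 lay 1.73-fold below Colon26. The LuM1 signal stood near the lowest measured signal of 20.1, and normexp background correction brought the log2 ratios to -5.56 and -4.74.

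By the distance between the pairs of log2 ratios over Colon26, the genes most like *Pmepa1* among those 12249 were *Lgals7*, *Car6* and *Wnt10a*, at distances of 1.23, 1.42 and 1.44. *Lgals7*, which encodes galectin-7, read 10243 in Colon26, 103.7 in LuM1 and 11898 in NM11. *Car6*, a secreted carbonic anhydrase, read 4795, 70.9 and 4412. *Wnt10a*, a WNT ligand, read 16346, 271.9 and 8162. In all 3, as in *Pmepa1*, LuM1 was low and the other lines were high, over only 3 arrays. The genes were picked by these ratios, so this likeness was fixed by the choice.

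SMAD7 blocks the type I receptor and recruits ubiquitin ligases to it. The brighter *Smad7* probe read 527.4 ± 53.0 in Colon26, 191.6 ± 19.6 in LuM1 and 459.5 ± 46.1 in NM11. The signal was 2.75-fold lower in LuM1 cells than in Colon26 cells and 2.40-fold lower than in NM11 cells (log2 ratios of -1.46 and -1.26). The dimmer *Smad7* probe gave -1.28 and -1.24 for these ratios, and -0.59 and -0.54 with normexp background correction. NM11 and Colon26 differed by -0.20 and -0.05 with the 2 probes, within the scanner errors of 0.20 and 0.25.

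SnoN holds SMAD complexes inactive on DNA. The brightest of 3 *Skil* probes read 988.3 ± 99.0 in Colon26, 779.2 ± 78.1 in LuM1 and 1521 ± 152 in NM11. *Skil* was 1.95-fold lower in LuM1 cells than in NM11 cells, with a log2 ratio of -0.96 and with -0.92 and -0.97 for the other 2 probes. Against Colon26, the brightest probe gave log2 ratios of -0.34 in LuM1 cells and 0.62 in NM11 cells, so that Colon26 lay between its sublines. In the authors' processed values the first of these turned to 0.10. With scaling to *Hprt* the second was 0.13, and for 1 dimmer probe it turned to -0.01. The log2 ratio of LuM1 over NM11 was -0.38 with that scaling for the brightest probe.

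*Tgfbi* encodes a secreted matrix protein and was first found as a TGF-beta-induced transcript. It read 37.9 ± 6.57 in Colon26, 423.2 ± 42.5 in LuM1 and 491.3 ± 49.3 in NM11. The signal was 11.2-fold higher in LuM1 cells and 13.0-fold higher in NM11 cells than in Colon26 cells, log2 ratios of 3.48 and 3.70 with a scanner error of 0.29. From the top, these ratios ranked 116th and 57th among the 12249 genes measured on all 3 arrays. This ranking leaves out genes not well above background in Colon26 cells, such as *Dcn* and *Bambi*. The sublines themselves differed by a log2 ratio of -0.22, beside a scanner error of 0.20, and its sign turned to 0.37 with scaling to *Hprt*. The Colon26 signal was low, and normexp background correction brought the ratios over Colon26 to 2.33 and 2.47.

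**Figure D2:**
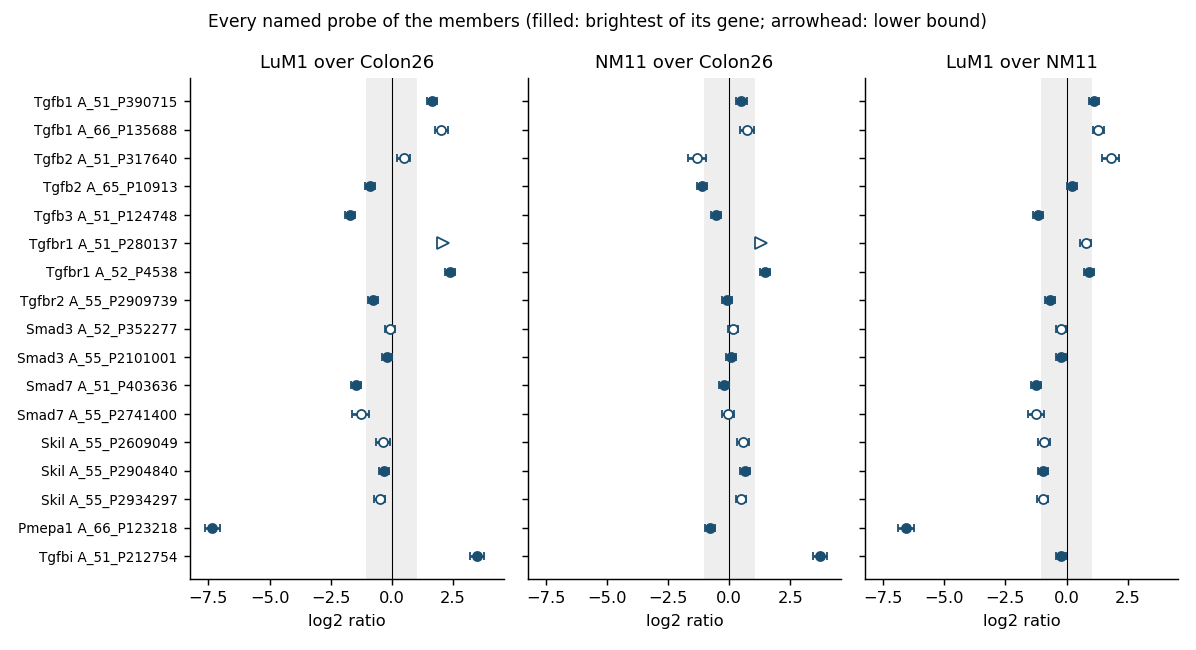
Log2 ratios (x axis) of all 17 probes of the 10 genes, by probe (y axis), for LuM1 over Colon26, NM11 over Colon26 and LuM1 over NM11, with the scanner error of the ratio as bars, filled points for the brightest probe of a gene, arrowheads for lower bounds and grey for less than 2-fold. The probes of *Tgfb1*, *Smad7* and *Skil* lie close together, the dimmer *Tgfbr1* probe gives only bounds over Colon26, and those of *Tgfb2* are 1.38 apart for LuM1 over Colon26.

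Counted by a 2-fold limit, 3 of the 10 genes were higher in LuM1 cells than in Colon26 cells (*Tgfb1*, *Tgfbr1* and *Tgfbi*), beside 9.49% of the 12249 genes measured on all 3 arrays, and 3 were lower (*Tgfb3*, *Smad7* and *Pmepa1*), beside 9.61%. Their median log2 ratio was -0.56, and that of the 12249 genes was -0.13. In NM11 cells, 2 were higher than in Colon26 cells (*Tgfbr1* and *Tgfbi*), beside 6.18%, and 1 was lower (*Tgfb2*), beside 5.05%, with medians of -0.02 for the 10 genes and -0.02 for all. Between the sublines, 1 was higher in LuM1 cells than in NM11 cells (*Tgfb1*), beside 7.28%, and 3 were lower (*Tgfb3*, *Smad7* and *Pmepa1*), beside 7.05%, with medians of -0.47 and -0.12. Because the genes were chosen with these ratios known, nothing is read from the counts against those shares. Compared with Colon26 and NM11 at once, LuM1 cells had higher *Tgfb1* by at least 2-fold, beside 4.29% of those genes, and lower *Tgfb3*, *Smad7* and *Pmepa1*, beside 3.96%. The 3 comparisons share arrays and are not independent.

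Some counts moved with the scaling. With scaling to *Hprt*, the genes higher and lower in NM11 cells than in Colon26 cells were 1 and 3, beside 3.14% and 16.9% of the 12249 genes under the same scaling, and with the spike-in controls they were 2 and 2, beside 3.81% and 11.2%. Between LuM1 and NM11, 2 genes were higher with no scaling, with scaling to *Hprt* or to the spike-in controls and in the authors' processed values, since *Tgfbr1* joined *Tgfb1*. The shares of all genes that were higher were 9.68%, 20.8%, 12.4% and 14.9% in these settings. The lower genes were *Smad7* and *Pmepa1* with no scaling and, in the other 3 of these settings, *Pmepa1* alone, beside 4.79%, 2.22%, 3.49% and 3.01%. *Hprt*, the housekeeping gene of purine salvage used as an internal control for RT-qPCR in these lines, read 11101 in Colon26, 10351 in LuM1 and 15573 in NM11. Scaling to it moved the median gene by 0.10 for LuM1 over Colon26, -0.49 for NM11 over Colon26 and 0.59 for LuM1 over NM11 on the log2 scale. No scaling moved it by 0.11, -0.08 and 0.18, the spike-in controls by 0.00, -0.33 and 0.33, and the authors' processed values by 0.45, 0.03 and 0.41. The 10 genes had 21 log2 ratios of single probes or brightest probes that were at least 2-fold. All 21 kept their direction under every alternative run, and 12 of all 51 did not. Settings that only rescale the arrays shift every ratio by 1 constant, at most 0.59 on the log2 scale. They could not turn a ratio of at least 2-fold, so for them this result was fixed in advance.

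**Figure D3:**
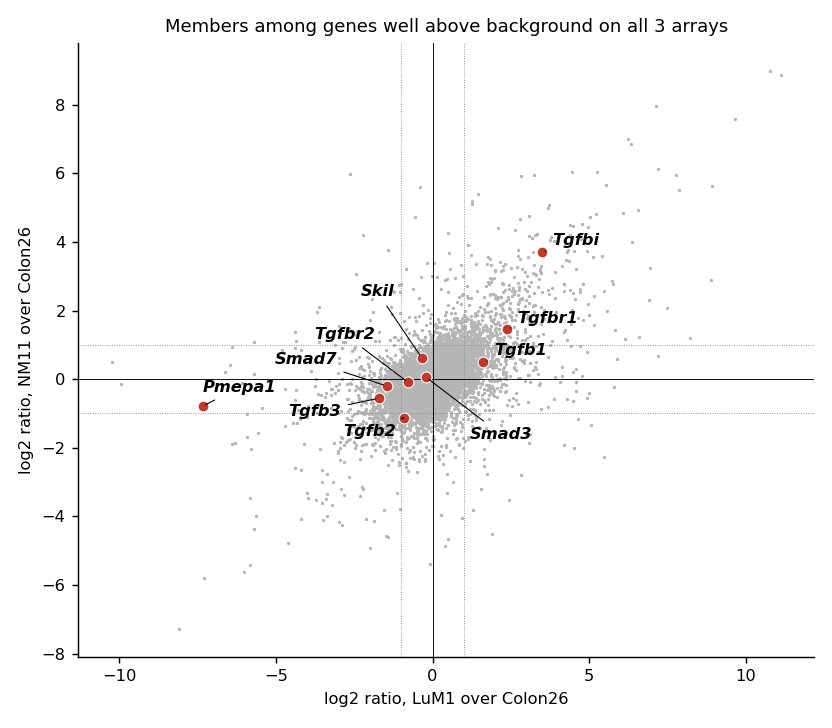
Log2 ratio of LuM1 over Colon26 (x axis) against that of NM11 over Colon26 (y axis), brightest probe, for 12249 genes measured on all 3 arrays (grey) and the 10 TGF-beta genes (red, named), with dotted lines at 2-fold. The axes share the Colon26 array, so no relation is read from the cloud; *Pmepa1* stands at -7.34 and -0.79, far to the left, and *Tgfbi* at 3.48 and 3.70, to the upper right.

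The lists of further pathway genes were also chosen with earlier results of these arrays known. Nothing is therefore read from their counts, in total or by group, against the shares of all genes. The other genes of the pathway were taken from a list of 65 in groups by role. Of these, 58 had a ratio or a bound for LuM1 over Colon26, and 14 were at least 2-fold higher and 14 lower (24.1% each), beside 13.1% and 11.8% of all genes with a ratio or bound. In NM11 cells, 9 of 56 were higher (16.1%) and 6 lower (10.7%) than in Colon26 cells, beside 8.34% and 7.89%. Between LuM1 and NM11, 7 of 58 were higher (12.1%) and 9 lower (15.5%), beside 11.1% and 8.5%. Median log2 ratios were -0.18, 0.12 and -0.20, beside the medians of all genes given above. The split also moved with the scaling. It was 17 higher and 7 lower for LuM1 over Colon26 in the authors' processed values, beside 21.2% and 6.09% of all genes with a ratio or bound there. For NM11 over Colon26 it was 8 and 11 with scaling to *Hprt*, beside 5.06% and 20.1%, and 8 and 9 with the spike-in controls, beside 5.91% and 14.5%. For LuM1 over NM11 it was 12 and 6 with *Hprt*, beside 25.3% and 3.52%, and 10 and 7 both with the spike-in controls, beside 16.8% and 4.94%, and in the authors' values, beside 19.3% and 4.43%.

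The genes that hold *Tgfb1* to *Tgfb3* products latent or set them free were a mixed group. Of 9 with a ratio or bound among 13, 2 were higher (22.2%) and 5 lower (55.6%) in LuM1 cells than in Colon26 cells. Of all genes with a ratio or bound, 13.1% were higher and 11.8% lower. *Itgb3*, the beta subunit of an integrin that binds the latent complex, was not well above background in Colon26 and NM11 cells and read 6625 in LuM1 cells, at least 251-fold and at least 339-fold higher. *Thbs1*, which encodes thrombospondin-1, read 4005 in Colon26, 45.6 in LuM1 and 5358 in NM11, 87.9-fold and 118-fold lower in LuM1. Of the latent TGF-beta binding proteins, *Ltbp2*, which does not itself bind latent TGF-beta, was higher in both sublines than in Colon26 cells, with log2 ratios of 2.87 in LuM1 and 3.22 in NM11. *Ltbp4* was lower in both (-2.20 and -1.39), as was *Ltbp3* (-1.33 and -1.70).

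Of 8 further receptors and co-receptors, 3 (37.5%) were higher in LuM1 cells than in Colon26 cells, beside 13.1% of all genes with a ratio or bound. *Eng*, which encodes the co-receptor endoglin, read 133.0 in Colon26, 1720.4 in LuM1 and 76.2 in NM11, and *Acvrl1*, the type I receptor ALK1 that works with endoglin in endothelial cells, read 181.3, 875.6 and 184.4. Both were high in LuM1 cells alone, by log2 ratios of 3.69 and 2.27 over Colon26 and 4.50 and 2.25 over NM11. *Tgfbr3*, which encodes betaglycan, the co-receptor for *Tgfb2* protein, was higher in both sublines, by log2 ratios of 1.67 and 1.58. *Acvr2b* was lower in NM11 cells by a log2 ratio of -1.55 over Colon26 and 1.06 higher in LuM1 than in NM11 cells. *Acvr1c* was at least 2.06-fold and at least 2.12-fold lower in LuM1 and NM11 cells, and its spot lies in a crowd of spots measured on the Colon26 array alone.

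None of the 7 further SMADs and partners, among them *Smad2* and *Smad4*, differed by 2-fold in any comparison, and their log2 ratios ran from -0.38 to 0.50 for LuM1 over Colon26, from -0.59 to 0.38 for NM11 over Colon26 and from -0.36 to 0.43 for LuM1 over NM11. The brightest probe of *Smad3* likewise stayed within 2-fold in each comparison. So did most of all genes with a ratio or bound, since 13.1% were higher and 11.8% lower in LuM1 cells than in Colon26 cells. The shares were smaller in the other comparisons.

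Of the 13 further negative regulators, the same 2 (15.4%) were higher in LuM1 and in NM11 cells than in Colon26 cells. The shares of all genes with a ratio or bound were 13.1% and 8.34%. Neither of the 2 was well above background in Colon26 cells. *Dcn*, which encodes decorin, a matrix proteoglycan that binds TGF-beta, read 27503 in LuM1 and 9599 in NM11, at least 1041-fold and at least 363-fold higher. *Bambi*, a pseudoreceptor, read 365.5 and 635.7, at least 13.8-fold and at least 24.1-fold higher. *Ppm1a*, a phosphatase of SMAD2 and SMAD3, was 2.35-fold lower in LuM1 cells than in Colon26 cells with its brightest probe, and a dimmer probe gave a log2 ratio of 0.03. *Nedd4l*, a ubiquitin ligase, was 2.29-fold lower in LuM1 cells than in NM11 cells with its brightest probe, and a dimmer probe gave a log2 ratio of -0.09.

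Among 24 further targets, 21 had a ratio or bound for LuM1 over Colon26, and 7 were higher and 7 lower (33.3% each). Of all genes with a ratio or bound, 13.1% were higher and 11.8% lower. *Col1a2*, a chain of type I collagen, read 59896 in Colon26, 49.6 in LuM1 and 85275 in NM11, and *Timp3*, an inhibitor of metalloproteinases, read 32606, 32.8 and 29742. Both were near the lowest measured signal in LuM1 cells, as *Pmepa1* was. *Snai1*, a repressor of epithelial genes, was higher in both sublines (log2 ratios of 3.09 and 2.71), as *Tgfbi* was. In NM11 cells, 5 of 20 were higher (25%) and 2 lower (10%) than in Colon26 cells, beside 8.34% and 7.89% of all genes. *Col3a1* led the higher ones (3.18). *Tnc*, which encodes tenascin-C, was measured in NM11 cells alone, at 201.2, at least 7.62-fold above Colon26 and at least 9.99-fold above LuM1. Between the sublines, 2 of 21 were higher (9.52%) and 7 lower (33.3%) in LuM1 cells, beside 11.1% and 8.5% of all genes. Among the lower was *Adam12*, a metalloproteinase, with -2.41. *Postn*, at least 4.40-fold and at least 4.52-fold lower in LuM1 and NM11 cells than in Colon26 cells, rests on a spot in such a crowd too, like that of *Acvr1c*. With the crowded spots left out, neither of these 2 genes was counted, and 12 of 56 further pathway genes (21.4%) were lower in LuM1 cells than in Colon26 cells, beside 10.7% of all genes. For NM11 over Colon26, 4 of 54 (7.41%) were then lower, beside 6.72%. The brightest probe of *Acta2*, smooth muscle actin, read 11294, 10708 and 12569 in Colon26, LuM1 and NM11, whereas a dimmer one read 48.6, 1766 and 1641, so the probes of this target disagreed.

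**Figure D4:**
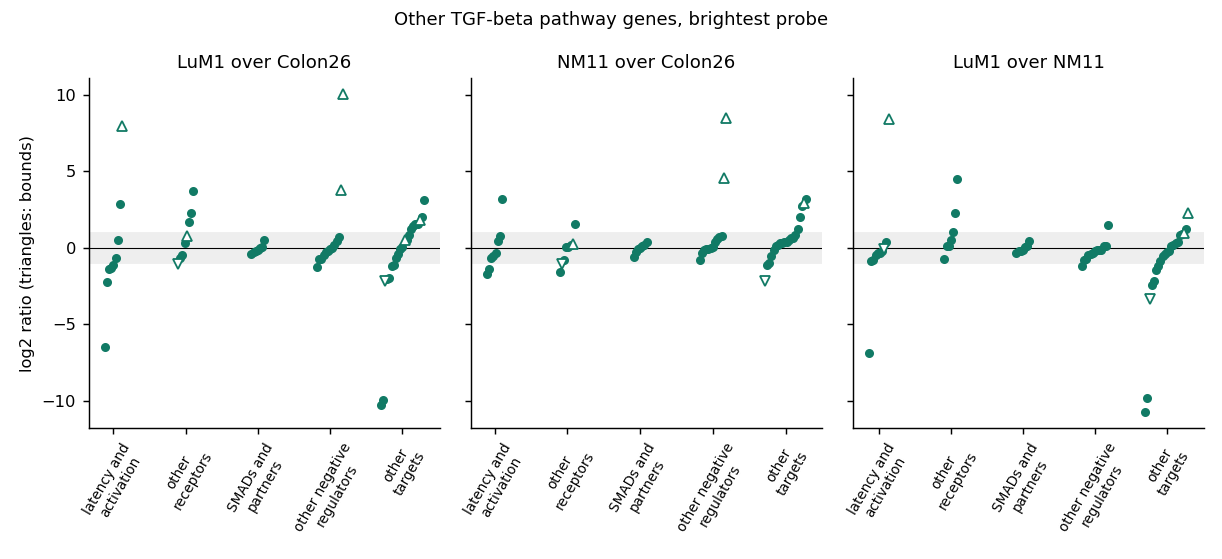
Log2 ratios (y axis) of the 65 further pathway genes with a ratio (dots) or a bound (open triangles) by group (x axis), for LuM1 over Colon26, NM11 over Colon26 and LuM1 over NM11, brightest probe, with grey for less than 2-fold. The SMADs and partners all lie in the grey band, and the lowest points of the LuM1 over Colon26 panel are the targets *Timp3* and *Col1a2*, at -9.96 and -10.24.

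The label of a colon adenocarcinoma was set against markers of cell types. Of 10 markers of colon epithelium, 4, 5 and 4 were well above background in Colon26, LuM1 and NM11, with summed signals of 1361, 522.8 and 460.2, and *Cdh1*, *Krt18*, *Krt19*, *Vil1* and *Cdx1* were not well above background on any array. Of 9 fibroblast markers, 6, 8 and 8 were well above background, with summed signals of 438678, 432082 and 562434, carried by *S100a4* (270498, 297722 and 345490) and *Vim* (102137, 80065 and 98371). Within this list the lines differed more than the sums. *Col1a2* was 1207-fold and *Col1a1* 2.19-fold lower in LuM1 cells than in Colon26 cells. In contrast, *Dcn* and *Thy1* were at least 1041-fold and at least 741-fold higher and *Pdgfra* 18.2-fold higher. In NM11 cells *Col1a2* was 1.42-fold higher than in Colon26 cells. *Dcn* and *Thy1* were well above background in NM11 cells too, and *Dcn* was at least 363-fold higher there than in Colon26 cells. Of 8 myeloid markers, 4, 5 and 4 were well above background in Colon26, LuM1 and NM11, with summed signals of 7061, 17064 and 6242. The defining *Ptprc*, *Adgre1* and *Tyrobp* were not well above background on any array. The myeloid sum was highest in LuM1 cells, as *Tgfb1* was, and its part in the *Tgfb1* signal was not tested. *Cd68* read 172.3, 5251 and 299.2 and *Cd14* 1153, 4175 and 987.8, while *Csf1r* read 682.3, 690.6 and 674.7. *Itgam* made up most of the sum in Colon26 and NM11 cells, and LuM1 cells stayed within 2-fold of both lines for it. *Col1a1*, *Col1a2* and *Dcn* stand both in the fibroblast markers and in the pathway lists, so markers and lists are not independent.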

How the data were processed

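Cy3-labelled RNA of Colon26, LuM1 and NM11 cells was hybridized to SurePrint G3 Mouse arrays, 1 array per line. Per the file headers and the submitters' processing notes, the intensity of every spot was deposited as Agilent Feature Extraction 11.5.1.1 gave it, background-subtracted and detrended, not scaled between arrays. They also deposited flags for outlier, saturated and well-above-background spots, and a series table of intensity values that equals the scanner intensity times a constant of 0.654 (Colon26), 0.829 (LuM1) or 0.706 (NM11). The method behind these constants is not given in the sources used here.

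Control spots and outlier spots (74 to 137 of 59305 per array) were left out, the 75th percentile of every array was set to 1 common value, and log2 ratios were taken. Of 56605 probes, 32994 (58.3%) were named by matching RefSeq accessions without versions to the GRCm38.p6 table. The array design is older, so no probe coordinates are given. No spot was saturated, and 49.9% to 53.8% of probes were well above background. Where 1 of both arrays was not, the bound used the higher of its signal and the lowest measured signal, and bounds under 1 were dropped. Precision is limited by the number of arrays, and no test was made. The scanner error combines 10.0% of the signal with an additive term. The scripts were tested on simulated data.

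The 10 genes and the lists were chosen with earlier results of these data known. The text names every probe set of the 10 genes, up to 4 genes per list and comparison with the largest ratio or bound past 2-fold, the 3 genes nearest to the one of the largest span, markers, and *Hprt*. *Smad2*, *Smad4*, *Col1a1*, the LuM1 ratio of *Ltbp3*, and the lesser probes of *Ppm1a*, *Nedd4l* and *Acta2* were named after their values were seen. Alternatives were arrays left unscaled, or scaled to E1A spike-in controls, to *Hprt* or to the median over measured probes, quantile normalization, normexp with an offset of 50 on median brightness, the authors' processed values, 2 other detection rules, leaving out clustered spots of the Colon26 array, the mean over probes, the probe brightest in LuM1, and a 4-fold limit. Clustered spots are those measured on the Colon26 array alone that crowd windows of 9 by 9 neighbouring spots. There were 525 of them, and none is a probe of the 10 genes. Python 3.11.15, numpy 2.4.6, pandas 2.3.3, scipy 1.17.1, matplotlib 3.10.9, R 4.3.3 and limma 3.58.1 were used.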

Additional observations from a re-analysis of the deposited data

Results flagged for a closer look

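*Skil*, the gene of the SMAD repressor SnoN, moved in opposite directions from Colon26 in the sublines, by -0.34 in LuM1 cells and 0.62 in NM11 cells on the log2 scale, a difference of -0.96 that was not tested. The LuM1 value turned to 0.10 in the authors' processed values, and the NM11 value fell to 0.13 with scaling to *Hprt*.

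*Adam12*, a metalloproteinase gene from the list of further targets, did the same by -1.18 in LuM1 cells and 1.23 in NM11 cells, a difference of -2.41 that was not tested.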

How the results depend on the processing

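No paired analysis was possible because each line has 1 array. Of 156 values of the 12 counts under 13 alternatives, 132 stayed within 1.5 times the value reported. The other detection rules and leaving out clustered spots could not move the counts of the 10 genes. Their brightest probes were measured on all 3 arrays, and none is a clustered spot. With a 4-fold limit, the genes of the 10 lower in LuM1 than in Colon26 cells became 1, beside 1.8% of the 12249 genes. The further pathway genes became 7 higher and 6 lower, beside 5.98% and 3.79% of all genes with a ratio or bound. For NM11 over Colon26 that limit gave 1 higher and 0 lower of the 10 genes, beside 1.95% and 0.882%. It gave 1 further gene lower, beside 2.85%. For LuM1 over NM11 it gave 0 higher and 1 lower of the 10 genes, beside 2.01% and 1.43%. Higher further genes were 4, beside 4.56%. With scaling to *Hprt*, 1 of the 10 genes was higher and 3 were lower in NM11 than in Colon26 cells, and 11 further genes were lower. Between LuM1 and NM11 that scaling gave 2 higher, 1 lower and 12 further genes higher. With the E1A spike-in controls, 2 of the 10 genes were lower in NM11 than in Colon26 cells, and 2 were higher and 1 lower in LuM1 than in NM11 cells. The authors' processed values also gave 2 higher and 1 lower for LuM1 over NM11, and 7 further genes lower for LuM1 over Colon26. No scaling and the mean over probes each gave 2 higher for LuM1 over NM11, beside 9.68% and 7.11% of the 12249 genes. With normexp, 0 of the 10 genes were lower in NM11 than in Colon26 cells, beside 3.1%. Signals near background limit *Pmepa1* in LuM1, *Tgfbi* in Colon26 and the dimmer probes of *Tgfb1*, *Tgfb2*, *Tgfbr1* and *Smad7*. Normexp was the alternative with the largest shift for *Pmepa1* in LuM1 over both other lines. The same held for *Tgfbi* in both sublines over Colon26. Normexp also used another brightness column and an offset of 50. The cause of these shifts was not tested.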
